A study of Mus musculus with 19 samples.

Results

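The mRNA recovered on the ribosomes of spinal cord cholinergic neurons was compared with the RNA of the whole spinal cord homogenate from which it was pulled down. The comparison sets 18 immunoprecipitate (IP) libraries against 1 pooled Input library, and takes in all 19 samples of the series. All animals were ChAT-Cre;RiboTag fx/+ males on the C57BL/6J background, which the labels list as wild-type, 10 weeks old and kept in 12 h of light and 12 h of darkness. IPs were made at Zeitgeber Time (ZT, hours after lights on) 0, 4, 8, 12, 16 and 20, with 3 biological replicates at each time and 1 spinal cord per homogenate. The pooled Input was RNA of the cleared homogenate before precipitation, and the sources used here do not say how many cords it held. It was total RNA rather than ribosome-bound RNA, so a difference between the cell types sampled and a difference in ribosome association of an mRNA cannot be told apart. With a single Input there is no test, and ratios are given with the spread over the 18 IPs.

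The RiboTag allele adds a hemagglutinin epitope to the ribosomal protein Rpl22 in cells that express Cre recombinase, and an antibody to the epitope then recovers tagged ribosomes with the mRNAs on them. Here Cre was driven by Chat, the gene of choline acetyltransferase, which makes acetylcholine. Cholinergic neurons of the spinal cord are the somatic motor neurons that drive skeletal muscle, the visceral motor neurons that feed autonomic ganglia, and several kinds of interneuron. Somatic motor neurons are large cells with very long axons, and are known for dense neurofilament bundles, high demand for axonal transport and energy, and their loss in amyotrophic lateral sclerosis (ALS).

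The study followed the enrichment by qPCR and, separately, by a Wald test on DESeq2 normalized counts. Its primers are shown for the cholinergic genes Chat, Slc5a7 (high-affinity choline transporter) and Ache (acetylcholinesterase). Those for Slc17a6 (the vesicular glutamate transporter VGLUT2 of excitatory neurons) and Slc6a5 (the glycine transporter GlyT2 of inhibitory neurons) are shown too. These genes are part of the axis on which the pulldown was judged. The primer list of the study also held Gfap, which is not shown. Each pair shown lay in adjacent coding exons, so that its product spans an intron (GRCm38, GENCODE M21). The Chat pair matched chr14:32426137-32426159 in exon 9 and chr14:32424183-32424205 in exon 10 of 16, the Slc5a7 pair chr17:54278716-54278737 in exon 8 and chr17:54277085-54277106 in exon 9 of 9, and the Ache pair chr5:137291017-137291038 in exon 2 and chr5:137291506-137291528 in exon 3 of 5. The Slc17a6 pair matched chr7:51649155-51649176 in exon 6 and chr7:51658709-51658731 in exon 7 of 12, and the Slc6a5 pair chr7:49927676-49927698 in exon 6 and chr7:49930078-49930099 in exon 7 of 16. Chat and Slc5a7 lie on the minus strand and the others on the plus strand, and each reverse primer is the complement of its transcript, written 5′ to 3′.
Chat forward: gcttgaatggagcgaatcgttgg
Chat reverse: caccaggacgatgccatcaaaag
Slc5a7 forward: tccatcctgtcggcgagttcta
Slc5a7 reverse: tgcagatgctccgaacacaagc
Ache forward: ttccttcgtgcctgtggtagac
Ache reverse: ccgtaaaccagaaagtaggagcc
Slc17a6 forward: cctatgctggagcagtcattgc
Slc17a6 reverse: ggctctcataagacaccagaagc
Slc6a5 forward: catttgtcagcgggagtgaagag
Slc6a5 reverse: tcctttcgccagtgatgcgtac

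Total counts ran from 6302140 to 22406850 in the IPs and came to 15239783 in the Input. Levels are given as CPM, the counts of a gene scaled to the depth of its library by trimmed-mean factors, and 1 count in the Input was worth 0.0529 CPM. Of 50559 genes in the table, 17901 had enough counts to be compared. A gene was called enriched where its mean CPM over the 18 IPs was at least 2-fold the Input and all 18 IPs lay above it, and depleted where the mean was at most 1/2 of the Input and all 18 lay below. By this rule 13.8% of genes were enriched and 23.0% depleted, the background against which each class of mRNA is read, and the median log2 ratio (IP over Input) of all genes was -0.08. A number in parentheses after a gene name is its log2 ratio. Scaling by library totals instead gave 1517 enriched and 5354 depleted genes in place of 2474 and 4110 and shifted the median ratio by -0.33. Enriched genes supplied 18.7% of the counts of the Input and between 43.9% and 49% of those of an IP. Depleted genes went the other way, from 26.3% of the Input to between 3.24% and 4.4% of an IP. The genes were called on these same libraries, so the direction of both shares follows from the rule and only their size is described. Large ratios were more frequent on the depleted side, with 1072 genes at least 8-fold depleted against 130 at least 8-fold enriched. The balance of calls differed with the level in the Input. At 10 to 99 Input counts 9.05% of genes were enriched and 36.9% depleted, and at 1000 or more 20.6% and 16.7%.

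Of 5 markers of cholinergic neurons 4 were far above the Input. The list was chosen with earlier results of these data known, so its ratios are a description and not a test of the recovery. Uts2, which encodes the peptide urotensin 2 of motor neurons, was at 7.09 CPM in the Input (95% Poisson interval, 5.94 to 8.39). The 18 IPs held between 132 and 220 CPM with a median of 188, a mean of 188 ± 26.8 (SD, n = 18), and a log2 ratio of 4.73. Prph, the intermediate filament peripherin, was at 114 CPM in the Input and between 2380 and 3592 CPM in the IPs (median, 3005), a log2 ratio of 4.71. Mnx1, the homeodomain factor of motor neurons, had 30 counts in the Input (1.59 CPM, 1.07 to 2.26). It lay between 23.8 and 35.5 CPM in the IPs (median, 28.8), a log2 ratio of 4.19, and had the narrowest relative spread of these markers. Slc18a3, the vesicular acetylcholine transporter, was at 55.1 CPM in the Input and between 246 and 850 CPM in the IPs (median, 535), a log2 ratio of 3.36. For these 4 genes the IPs and the Input did not overlap. In bulk libraries fewer cells of a type and less RNA per cell of that type cannot be told apart, which holds for every cell type described.

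Chat itself was the exception. It was at 12.7 CPM in the Input and ran from 8.39 CPM in ZT8 replicate 2 to 86.6 CPM in ZT16 replicate 2 (median, 35.0), so that 17 of 18 IPs lay above the Input. Its log2 ratio of 1.64 met the 2-fold threshold and not the rule on all 18. Without ZT8 replicate 2 Chat met both (log2 ratio, 1.71). The same 2 libraries were also the lowest and the highest for Slc18a3, which is read from within the Chat locus (chr14:32462437-32464850 inside chr14:32408203-32465909, GRCm38.p6). Ache was lowest in ZT8 replicate 2 as well (427 to 1070 CPM; Input, 197 CPM). Rpl22, the gene that carries the tag, was at 62.1 CPM in the Input and between 62.9 and 141 CPM in the IPs, and its order was the reverse, lowest in ZT16 replicate 2 and highest in ZT8 replicate 2.

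**Figure D1:**
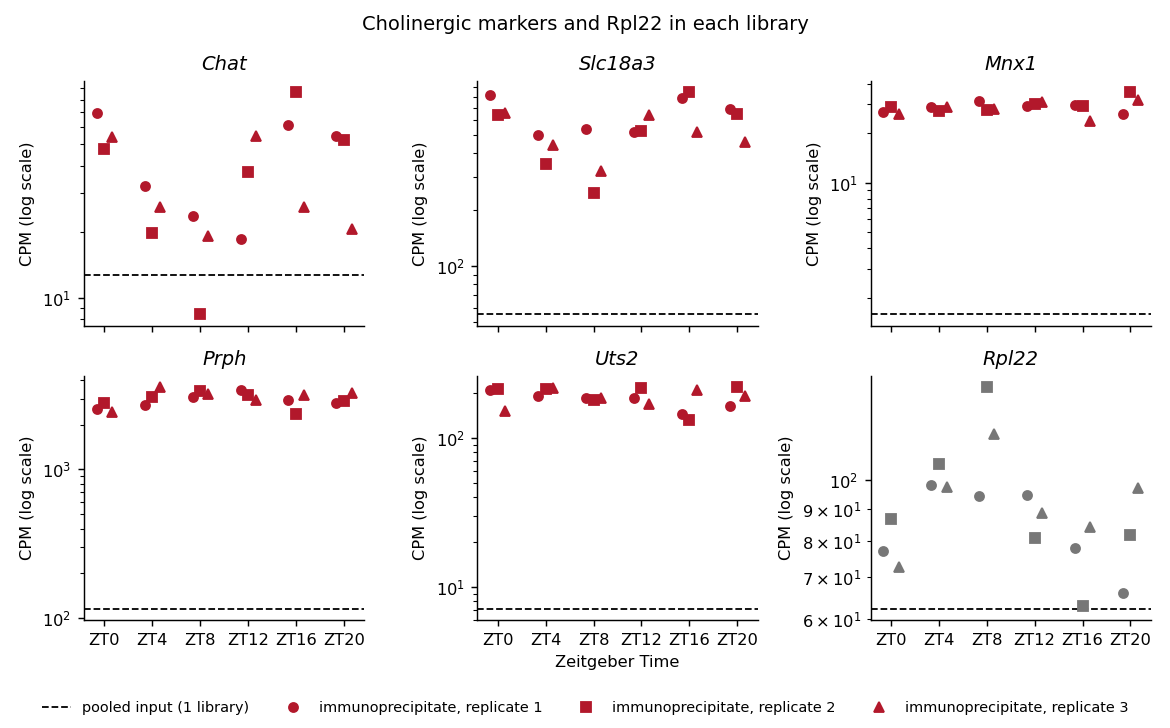
CPM of 5 cholinergic markers and of Rpl22 (log axes, each with its own range) in the 18 immunoprecipitates by Zeitgeber Time, with symbols for the 3 replicates and a dashed line for the pooled Input. Uts2, Prph, Mnx1 and Slc18a3 lie above the line in all 18, whereas Chat spans 8.39 to 86.6 CPM and 1 of its points lies under the line.

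Among 12 genes that handle acetylcholine, 5 were enriched and 2 depleted, with a median log2 ratio of 0.99. The enriched genes were Slc18a3, Ache, Slc5a7, Prima1 (1.68), whose protein anchors acetylcholinesterase in the membrane, and Pcyt1b (1.02), an enzyme of phosphatidylcholine synthesis. The depleted pair were Bche (-3.40), a cholinesterase known from glia and serum, and Slc44a1 (-2.27), a choline transporter-like protein. Slc10a4, a vesicle transporter of cholinergic neurons, was at 29.5 CPM in the Input and between 301 and 417 CPM in the IPs, a log2 ratio of 3.62.

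Of 16 motor neuron transcription factors compared, 7 were enriched and 3 depleted, with a median log2 ratio of 0.48. Besides Mnx1 the enriched homeodomain factors were Lhx4 (3.10), Isl2 (2.75), Lhx3 (2.65) and Isl1 (2.39). Isl1 was at 2.86 CPM in the Input (2.15 to 3.73) and between 9.21 and 21.1 CPM in the IPs. Bcl6 (2.10) and Esrrb (1.40) were enriched as well. The depleted factors were Nkx6-1 (-4.94), also a homeodomain factor and at 0 in 11 of 18 IPs, Zeb2 (-3.79) and Etv1 (-2.27).

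Markers of alpha and gamma motor neurons had a median log2 ratio of 1.42, with 10 of 15 enriched and none depleted. The 3 that lay below the Input included Creb5 (-0.74) and Esrrg (-0.505). Chodl, a mark of fast motor neurons, was at 32.8 CPM in the Input and between 317 and 493 CPM in the IPs (median, 366), a log2 ratio of 3.52. Spp1, osteopontin, an alpha motor neuron marker, was at 112 CPM and between 763 and 983 CPM (log2 ratio, 2.96). Mmp9 (2.23), known from the fast motor neurons most vulnerable in ALS, Sv2b (1.43), a synaptic vesicle glycoprotein, and Htr1d (1.27), known from gamma motor neurons, were all enriched. Rbfox3, the NeuN antigen, which is low in gamma motor neurons, was at 128 CPM and between 152 and 214 CPM, a log2 ratio of 0.50. Of 7 markers of the other cholinergic cells 1 was enriched and 4 were depleted (median, -1.14). Their log2 ratios ran from -2.12 to 3.02, and the depleted genes included Mpped2 (-2.12) and Mme (-1.70). Nos1 (0.64), known from visceral motor neurons, was above the Input in all 18 IPs but short of 2-fold.

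Neuropeptide precursors split by peptide. Of 31 compared, 13 were enriched and 8 depleted. Uts2b (4.40), which encodes urotensin 2B, stood beside Uts2. Ucn, which encodes urocortin, had a log2 ratio of 4.62 from 7 counts in the Input. The filter kept Ucn through its counts in an IP, so its high ratio is not independent of the filter. Calca, the precursor of the peptide CGRP, was at 54.5 CPM in the Input and between 504 and 784 CPM in the IPs (log2 ratio, 3.52), and its paralog Calcb had a log2 ratio of 3.14. Cartpt (3.08), Nts (2.43), and the granule proteins Chga (2.27) and Vgf (2.20) were enriched too. The depleted precursors included Tac1 (-2.05), of substance P, Tac2 (-3.88), of neurokinin B, Grp (-2.53) and Npy (-1.98), peptides of dorsal horn and sensory neurons.

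Marker lists of non-neuronal cells were depleted almost in full. All 12 oligodendrocyte markers were depleted (median log2 ratio, -3.58), as were all 8 of oligodendrocyte precursors (-3.07), 10 of astrocytes (-4.11), 12 of microglia (-3.85), 11 of endothelial cells and pericytes (-3.72), 8 of meninges and fibroblasts (-3.27) and 5 of erythrocytes (-2.78). Slc1a3, the glutamate transporter GLAST of astrocytes, was at 64.7 CPM in the Input and between 0.491 and 3.75 CPM in the IPs. Mal, a proteolipid of compact myelin, was at 530 CPM and far below it in every IP, with a median of 12.8 CPM. The IPs nonetheless kept a measurable remainder, and the 12 oligodendrocyte genes together held 2.77% of the counts of the Input and between 0.158% and 0.296% of those of an IP. The share of the 10 astrocyte genes went from 0.442% to between 0.0154% and 0.0262%, and that of the 12 microglia genes from 0.0411% to between 0.00387% and 0.00538%. The part of this remainder in the ratios of other genes was not tested.

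Of 8 Schwann cell markers 7 were depleted, and Pmp22 lay at -0.95. Of 8 ependymal markers 6 were depleted, whereas Foxj1 (0.46), the factor of motile cilia, was above the Input in all 18 IPs, at 39.2 to 66.8 CPM against 38.1 CPM.

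Neurons of other transmitter classes had less negative medians than glia. Excitatory markers had a median log2 ratio of -2.42 (6 of 7 depleted) and inhibitory markers one of -1.56 (5 of 7 depleted). Slc17a6 lay at -1.47 and Slc6a5 at -1.99. Gad1, which makes GABA, was at 137 CPM in the Input and between 106 and 157 CPM in the IPs, 4 of 18 being above the Input, while its paralog Gad2 had a log2 ratio of -1.56. Markers of sensory neurons, whose cell bodies lie outside the cord, were depleted in 8 of 11 cases (median, -4.23). Avil, Scn10a, Trpv1 and Mrgprd, which define sensory neurons, were at 0 in 6, 6, 8 and 13 of 18 IPs. Calca, the 1 enriched gene of that list, is also on the motor neuron list.

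Genes that all neurons express had a median of 0.50, with 5 of 15 enriched (3 under library totals) and none depleted. These were Tubb3 (2.79), Nefl (2.71), Uchl1 (2.32), Thy1 (1.26) and Eno2 (1.04). Snap25 (0.35), Elavl3 (0.18) and Syt1 (-0.22), which serve synapses and RNA handling in neurons at large, stayed within 2-fold of the Input.

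**Figure D2:**
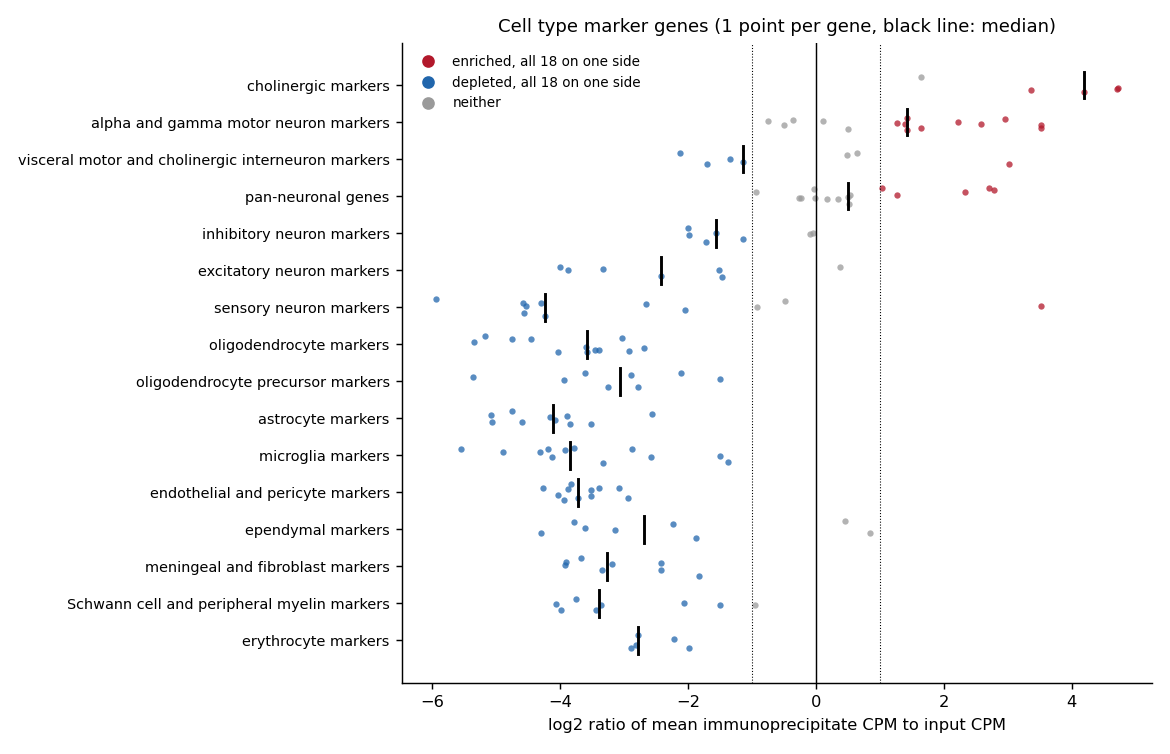
Log2 ratio of mean immunoprecipitate CPM to Input CPM for each gene of 16 cell type marker lists (points; red, enriched; blue, depleted; grey, neither; vertical position within a list is random) with the list median as a black line and dotted lines at 2-fold. The medians of the cholinergic and of the alpha and gamma motor neuron lists lie at 4.19 and 1.42. That of the visceral motor and cholinergic interneuron list lies at -1.14, and the oligodendrocyte, astrocyte, microglia and endothelial lists lie wholly to the left.

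When genes under 100 Input counts were set aside, the ranking by ratio was led by Uts2, Prph, Palm3, Hspb1 and Lgals1, and continued with Fxyd7 (3.77), a small regulator of the sodium pump, Blvrb (3.76), biliverdin reductase B, Kcnj14 (3.65), an inwardly rectifying potassium channel, Slc10a4, Grin3b (3.60), an NMDA receptor subunit known from motor neurons, Chodl, Calca, Anxa2 (3.48), annexin A2, Bag3 (3.44), a co-chaperone of HSP70 and the small heat shock proteins, and Gp1bb (3.43). Fxyd7 was at 67.5 CPM in the Input and between 658 and 1168 CPM in the IPs. Gp1bb was the least even of them, from 26.8 CPM in ZT20 replicate 1 to 181 CPM in ZT8 replicate 2 (Input, 5.71 CPM). Its span overlaps that of Septin5 (1.14), and that of Uts2 overlaps Per3 (-1.81). The library kit keeps strand, but the strand setting used for counting is not given in the sources used here, so reads of overlapping genes may be shared.

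At the low end of the ranking stood structured RNAs, mitochondrial transcripts and genes of other cells. The last included Lox (-5.61), which cross-links collagen, Thbd (-5.57), thrombomodulin of endothelium, P2ry12 (-5.55), the ADP receptor of microglia, Plpp3 (-5.56), a lipid phosphatase, and Gpr17 (-5.36), a receptor of oligodendrocyte precursors. Plpp3 was at 105 CPM in the Input and between 0.781 and 3.75 CPM in the IPs. Some of the lowest genes have a span that lies inside that of another gene. Adnp (-7.48) had 156 counts in the Input and none in 16 of 18 IPs, and lies within the span of Gm20716, a long noncoding RNA gene with a log2 ratio of -0.01 and 1557 counts in the Input. Zbed6 (-5.91) lies within Zc3h11a (-0.63), P2ry12 within Med12l (0.04) and Gpr17 within Lims2 (-3.29). How counting divided reads within these pairs was not tested. Gna12 (-5.44), a G protein subunit, was at 54.6 CPM in the Input and ran from 0 CPM in ZT8 replicate 2 to 5.55 CPM in ZT16 replicate 2.

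The functional classes spread over a wide range of medians. Outside the cell type lists, the highest median was that of neuronal intermediate filaments (3.05) and the lowest that of small structured RNAs (-6.00). With the cell type lists, the 74 classes held 2023 of the genes compared, and 66 genes stood in more than 1. Scaling by library totals lowered every class by about the shift of all genes, and enriched or depleted counts of 5 or more that it moved by more than 1.5 times are given with their class.

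**Figure D3:**
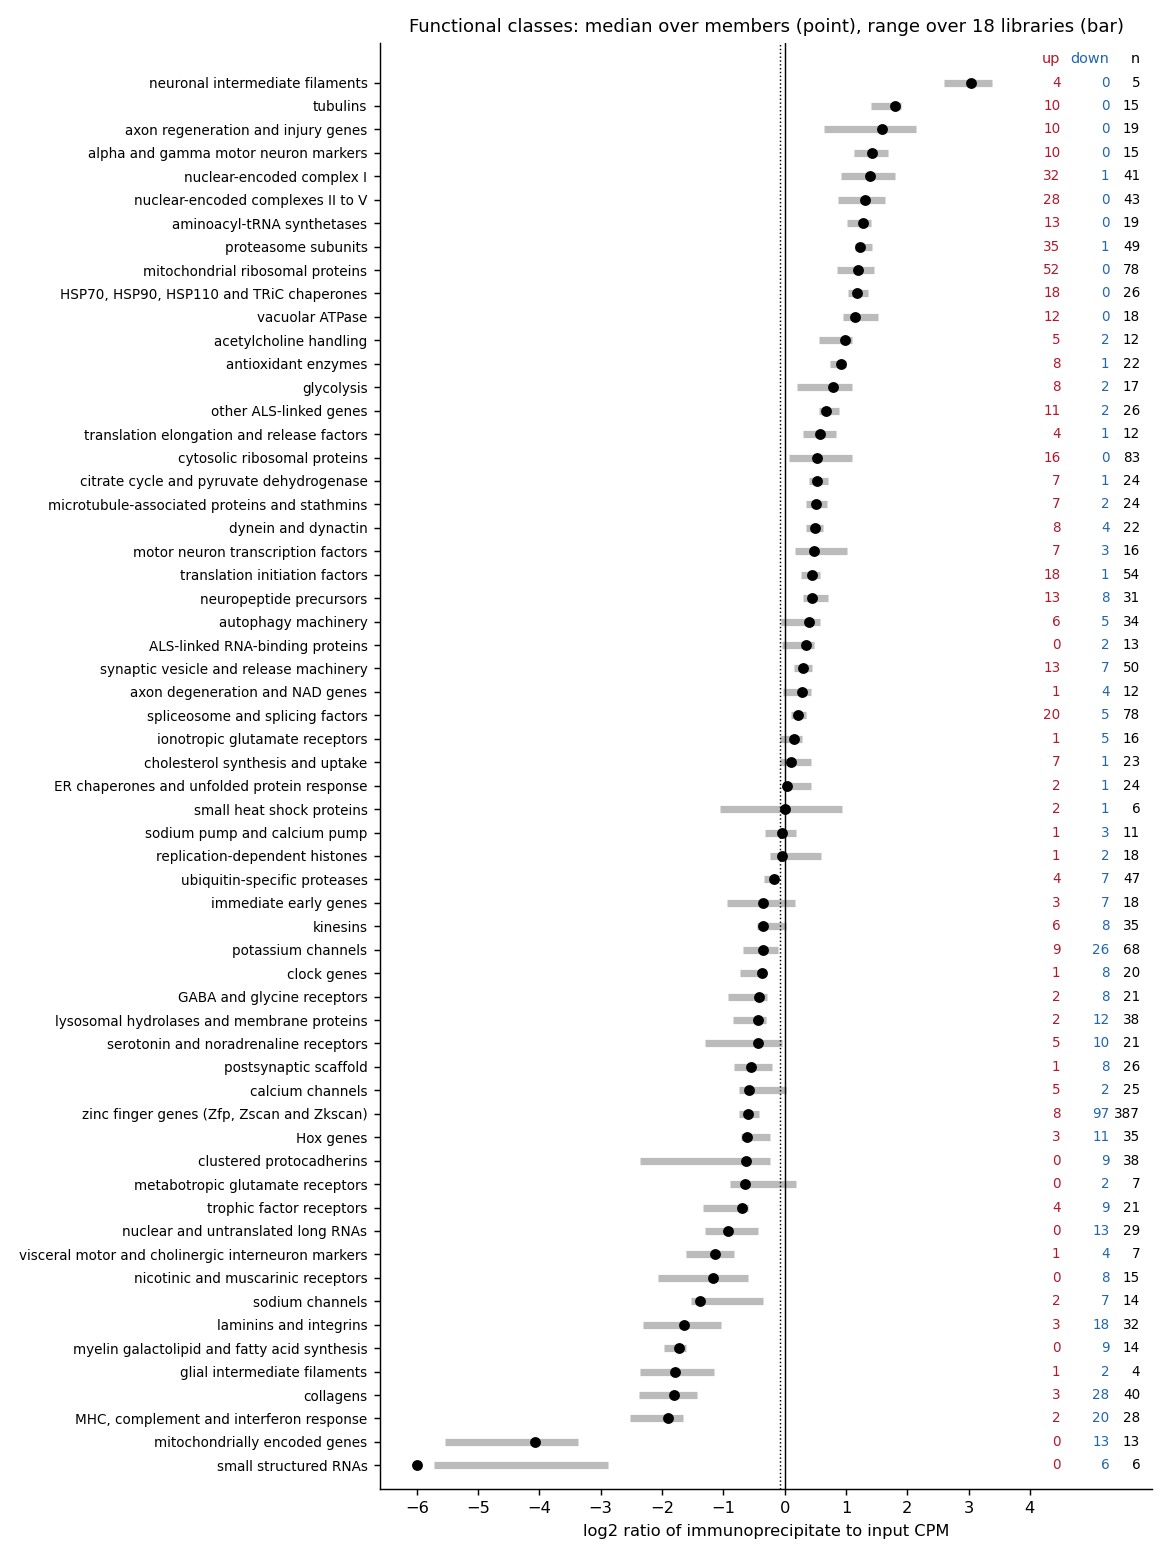
Median log2 ratio of the members of each functional class (point), the lowest and the highest median over the 18 immunoprecipitates (grey bar), and on the right the numbers of members enriched, depleted and compared. The dotted line marks the median of all genes (-0.08). In a single library a count of 0 was set to 3 counts, which places the bar of the small structured RNAs above its point.

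The cytoskeleton of the large axon led. Nefl, Nefm and Nefh, the light, medium and heavy neurofilament subunits, were at 1915, 1414 and 909 CPM in the Input. The IPs lay between 9474 and 15148 CPM for Nefl, between 8544 and 14686 CPM for Nefm and between 8213 and 11015 CPM for Nefh. The log2 ratio thus increased with subunit size, from 2.71 to 3.05 to 3.35. Ina, the alpha-internexin of many central neurons, was the exception among the 5 neuronal filaments. It was at 300 CPM in the Input and between 157 and 245 CPM in the IPs, below the Input in all 18 (log2 ratio, -0.56). The 5 genes together held 0.577% of the counts of the Input and between 2.96% and 4.16% of those of an IP. Of the glial filaments Gfap (-3.89) and Vim (-3.15) were depleted, and Synm (1.27), synemin, was enriched.

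Tubulins had a median of 1.80, with 10 of 15 enriched and none depleted. Tubb3, the neuronal beta-tubulin, was at 599 CPM in the Input and between 3364 and 5028 CPM in the IPs (log2 ratio, 2.79). Tubb4a, an isotype abundant in oligodendrocytes, was not separated from the Input, with 10 of 18 IPs above it and a log2 ratio of 0.02, and Tubb2b lay at -0.72. Reads of near-identical tubulin genes are divided by a model, so single isotypes are less certain than the class. Among proteins that bind microtubules, Stmn3 (3.02) and Stmn2 (2.51), of the stathmin family of tubulin-binding proteins, and Map1b (1.65) led 7 enriched of 24, or 4 under library totals, while Map7 (-2.65) and Dcx (-2.35) were depleted.

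Of 35 kinesin genes 6 were enriched and 8 depleted (median, -0.35). These shares, 17.1% and 22.9%, were near the 13.8% and 23.0% of all genes. Of 22 dynein and dynactin genes 8 were enriched and 4 depleted (median, 0.49), and 14 lay above the Input. The 3 heavy chains of conventional kinesin, which carries cargo outward along axons, differed. Kif5c was at 617 CPM in the Input and between 1255 and 2384 CPM in the IPs (log2 ratio, 1.37), Kif5a lay at -0.34 and Kif5b at -0.97. The light chain Klc1 was at 633 CPM and between 3058 and 5030 CPM (log2 ratio, 2.54). Dync1h1, the heavy chain of the dynein that carries cargo back to the soma, was at 383 CPM and between 1217 and 1753 CPM (log2 ratio, 1.85). Under library totals the counts became 3 enriched and 12 depleted kinesins, and 4 and 5 genes of dynein and dynactin. All genes moved the same way, from 2474 to 1517 enriched and from 4110 to 5354 depleted.

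Ion channels were mostly at or below the Input, with a few subunits far above it. Of 68 potassium channel genes 9 were enriched and 26 depleted (median, -0.36). The enriched share, 13.2%, was near the 13.8% of all genes, and the depleted share was 38.2% against 23.0%. The enriched subunits were led by Kcnj14, at 27.7 CPM in the Input and between 283 and 421 CPM in the IPs. Kcnk3 (2.61) and Kcnk9 (1.74), the TASK leak channels that set resting potential, Kcng4 (2.45), a modulatory subunit, and Kcnh2 (1.59) followed. The most depleted included Kcnj10 (-4.33) and Kcnj16 (-4.51), which form the potassium channel of glia. Kcnj10 was at 775 CPM in the Input and between 26.9 and 48.2 CPM in the IPs.

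Of 14 sodium channel genes 2 were enriched and 7 depleted (median, -1.39). Scn8a, the Nav1.6 channel of the axon initial segment and nodes, was at 298 CPM in the Input and between 840 and 1140 CPM in the IPs (log2 ratio, 1.66). Scn1a lay at -0.42, and Scn2a was depleted (-2.02), as were the sensory neuron channels Scn10a (-4.57) and Scn11a (-4.23). Calcium channels held 5 enriched and 2 depleted of 25. Cacnb1 (1.85), Cacna2d3 (1.66), the L-type Cacna1d (1.47), and the T-type Cacna1g (1.39) and Cacna1h (1.24) were enriched, and Cacnb4 (-1.61) and Cacna2d2 (-1.59) depleted. With library totals the depleted calcium channel genes became 9.

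Of 11 genes of the sodium and calcium pumps 1 was enriched and 3 were depleted. Atp1b2, the glial beta subunit of the sodium pump, was at 1418 CPM in the Input and between 81.1 and 135 CPM in the IPs (log2 ratio, -3.68).

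Transmitter receptors held few enriched genes. Of 16 ionotropic glutamate receptor genes 10 lay above the Input but 1 was enriched, Grin3b, at 7.99 CPM in the Input (6.76 to 9.37) and between 76.7 and 121 CPM in the IPs. Gria1 (-1.03), Gria2 (-1.02), Grik1 (-1.40), Grik2 (-1.03) and Grik3 (-2.47) were depleted, and the class median of 0.15 turned to -0.18 under library totals. Of 21 GABA and glycine receptor genes 2 were enriched and 8 depleted, with log2 ratios from -2.90 to 3.37. Gabra2 (1.09), an alpha subunit of the GABA-A receptor, was enriched, whereas its paralogs Gabra3 (-1.36) and Gabra4 (-2.90) were depleted. None of 15 genes in the nicotinic and muscarinic class was enriched and 8 were depleted. Chrm2, the muscarinic M2 receptor of motor neurons, was at 48.9 CPM in the Input and between 48.3 and 90.3 CPM in the IPs, 17 of 18 above the Input. Chrna7 (-3.52) and Chrna4 (-1.59), nicotinic subunits, were depleted.

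Receptors for descending monoamines and for trophic factors held more enriched genes than the receptor classes above. Their highest log2 ratios, 2.20 and 1.92, were below that of Grin3b (3.60). Of the noradrenaline receptors Adra1d (2.20), Adra1a (1.41) and Adra2c (1.33) were enriched, while 10 of 21 genes in the class of serotonin and noradrenaline receptors were depleted, Htr2c (-1.58) among them. The enriched came to 5 in all, and to 2 under library totals. Ret, the signalling receptor for GDNF, was at 122 CPM in the Input and between 339 and 612 CPM in the IPs (log2 ratio, 1.92). Its co-receptor Gfra1 (1.42), and Lifr (1.58), the receptor for leukemia inhibitory factor, were enriched with it. The class of trophic factor receptors nevertheless had 17 of 21 genes below the Input, 4 enriched and 9 depleted, and a median of -0.70. The vascular receptors Kdr (-3.98) and Flt1 (-3.51) and the neuregulin receptor Erbb3 (-3.45) were depleted.

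Genes of the presynaptic side held more enriched members than those of the postsynaptic side. Of 50 genes of synaptic vesicles and release 13 were enriched and 7 depleted, with a median of 0.30 that turned to -0.02 under library totals. Rab3b, a vesicle GTPase, was at 25.5 CPM in the Input and between 236 and 306 CPM in the IPs (log2 ratio, 3.38). Syt2, the fast calcium sensor of neuromuscular terminals, had a log2 ratio of 1.86, against -0.22 for its paralog Syt1. Syp (1.99) and Sncg (2.29) were enriched, and Napb (-2.35) and Unc13c (-2.20) depleted. Of 26 postsynaptic scaffold genes 1 was enriched, Nlgn2 (1.36), the neuroligin of inhibitory synapses, and 8 were depleted (12 under library totals), Camk2a (-2.29) and Shank3 (-2.11) among them. None of 38 clustered protocadherins was enriched and 9 were depleted (23.7%, near the 23.0% of all genes), with a median of -0.63. Their library medians spread from -2.36 in ZT8 replicate 3 to -0.24 in ZT16 replicate 2, and as related genes they may share reads.

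The machinery of protein synthesis lay above the Input to unequal degrees. Cytosolic ribosomal proteins had a median of 0.53, with 73 of 83 above the Input but 16 enriched, and their median ran from 0.07 in ZT16 replicate 2 to 1.10 in ZT8 replicate 2. They include Rpl27 (1.68) at the upper end and Rps27 (-0.70) at the lower. Mitochondrial ribosomal proteins were higher, at 1.19, with 52 of 78 enriched and none depleted. Mrpl41 was at 28.0 CPM in the Input and between 92.2 and 213 CPM in the IPs (log2 ratio, 2.34).

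Aminoacyl-tRNA synthetases, which load tRNAs with amino acids, had 13 of 19 enriched and a median of 1.27. Gars, the glycyl-tRNA synthetase mutated in an inherited motor neuropathy, was at 127 CPM in the Input and between 392 and 515 CPM in the IPs (log2 ratio, 1.81). Of 54 translation initiation factor genes 18 were enriched, Eif2b4 (2.07) the most, and 1 was depleted, Eif4ebp2 (-3.44), a repressor of cap-dependent initiation. The 2 isoforms of elongation factor 1A went apart. Eef1a2, the isoform of neurons and muscle, was at 1019 CPM in the Input and between 2405 and 3526 CPM in the IPs (log2 ratio, 1.57). Eef1a1, the isoform of other cells, was at 1279 CPM and between 352 and 456 CPM (log2 ratio, -1.63). Under library totals 5 cytosolic ribosomal proteins, 33 mitochondrial ribosomal proteins, 8 synthetases and 7 initiation factors remained past the threshold.

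In protein quality control, most genes of the proteasome and of the large chaperone families were enriched, and most genes of the endoplasmic reticulum and lysosome were not. Of 49 proteasome genes 35 were enriched (median, 1.23, and between 1.15 and 1.43 in every IP). Psmb5, a catalytic subunit, was at 68.8 CPM in the Input and between 228 and 574 CPM in the IPs (log2 ratio, 2.49). The single depleted gene was Psmb8 (-1.61), of the immunoproteasome. Of 26 genes of the HSP70, HSP90, HSP110 and TRiC families 18 were enriched and none depleted. Bag3, which is in this class, was at 51.8 CPM and between 494 and 667 CPM, and Hspa8 (1.41), the constitutive HSP70, and Hsp90aa1 (1.54) were enriched.

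The small heat shock proteins went to opposite sides. Hspb1 had a log2 ratio of 4.14 and Hspb8, the partner of Bag3, was at 42.5 CPM in the Input and between 171 and 252 CPM in the IPs (log2 ratio, 2.34), while Cryab, known from oligodendrocytes and astrocytes, was at 283 CPM and between 70.9 and 98.1 CPM (-1.70). Chaperones of the endoplasmic reticulum and the unfolded protein response held 2 enriched and 1 depleted of 24, with a median of 0.04 that fell below 0 under each other scaling. Those past the threshold were Syvn1 (1.22), Atf4 (1.19) and Dnajb9 (-1.27). The vacuolar proton pump, which acidifies lysosomes and vesicles, had 12 of 18 genes enriched (median, 1.15), Atp6v1e1 (1.85) the most, whereas of 38 lysosomal hydrolases and membrane proteins 2 were enriched, Ctsd (1.35) and Neu1 (1.03), and 12 depleted. The most depleted lysosomal genes were Cd68 (-4.36), Ctss (-4.14) and Ctsh (-3.88), known from microglia and macrophages. Of 34 autophagy genes 6 were enriched, including the receptors Sqstm1 (1.14) and Optn (1.18), and 5 depleted. These were 17.6% and 14.7%, against 13.8% and 23.0% of all genes. Of 47 ubiquitin-specific proteases 4 were enriched, led by the paralogs Usp13 (2.41) and Usp5 (2.13), and 7 depleted, with Usp53 (-3.42) the lowest, and 30 lay below the Input. Library totals left 19 proteasome, 11 chaperone, 6 vacuolar pump and 2 autophagy genes enriched, and raised the depleted to 18 lysosomal genes and 12 ubiquitin-specific proteases.

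Respiratory chain genes were split by the genome that encodes them. Of 41 nuclear genes listed under complex I 32 were enriched and 1 depleted (median, 1.39). Of 43 nuclear genes of complexes II to V 28 were enriched and none depleted (1.31). Ndufs5 was at 46.3 CPM in the Input and between 132 and 584 CPM in the IPs (log2 ratio, 2.52). Cox5a was at 168 CPM and between 405 and 1447 CPM (log2 ratio, 2.12). The one depleted gene listed under complex I was Ndufa4l2 (-2.59), whose place in that complex was not checked. For both classes the lowest library median was in ZT16 replicate 2, at 0.92 and 0.87, and the highest in ZT8 replicate 2, at 1.80 and 1.64.

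All 13 protein-coding genes of the mitochondrial genome were depleted (median, -4.08). They held 6.07% of the counts of the Input and between 0.161% and 0.471% of those of an IP. These mRNAs are made and translated inside mitochondria on ribosomes that lack Rpl22. COX1, subunit 1 of cytochrome oxidase, was at 15567 CPM in the Input and between 334 and 1003 CPM in the IPs (log2 ratio, -4.46). The depletion ran from -3.08 for ND6 to -6.55 for ATP8, whose sequence overlaps ATP6 (-4.10), and ND5 lay between 11.8 and 64.5 CPM in the IPs against 1583 CPM in the Input.

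Glycolysis had 8 of 17 genes enriched and 2 depleted. Ldhb (1.59), Pkm (1.49), Ldha (1.32) and Pgk1 (1.25) led. The aldolases parted, Aldoa being at 1151 CPM in the Input and between 1251 and 3277 CPM in the IPs (log2 ratio, 1.15), and Aldoc, the isoform of astrocytes, at 1455 CPM and between 435 and 717 CPM (-1.26). Aldoa was lowest in ZT8 replicate 2, and under library totals 2 of the 17 genes were enriched. Of 24 genes of the citrate cycle and pyruvate dehydrogenase 7 were enriched (4 under library totals), with Pdhb (2.00) first. The subunits that give succinyl-CoA ligase its nucleotide differed, since Sucla2, of the ATP-forming enzyme, was enriched (1.36) and Suclg2, of the GTP-forming enzyme, was at 22.7 CPM in the Input and between 0.639 and 4.69 CPM in the IPs (-3.31).

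Among 14 genes of myelin galactolipid and fatty acid synthesis none was enriched and 9 were depleted, Ugt8a (-5.17) and Fa2h (-4.19) the most. Cholesterol synthesis held 7 enriched and 1 depleted of 23, with a median of 0.11 that turned to -0.22 under library totals. Fdps (1.90) was the highest and Lss (-1.19) the lowest. Of 22 antioxidant enzymes 8 were enriched, among them Sod1, the superoxide dismutase mutated in some familial ALS, at 168 CPM in the Input and between 561 and 983 CPM in the IPs (log2 ratio, 2.22), and Prdx2 (2.09). Prdx6 (-1.28), known from astrocytes, was depleted.

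**Figure D4:**
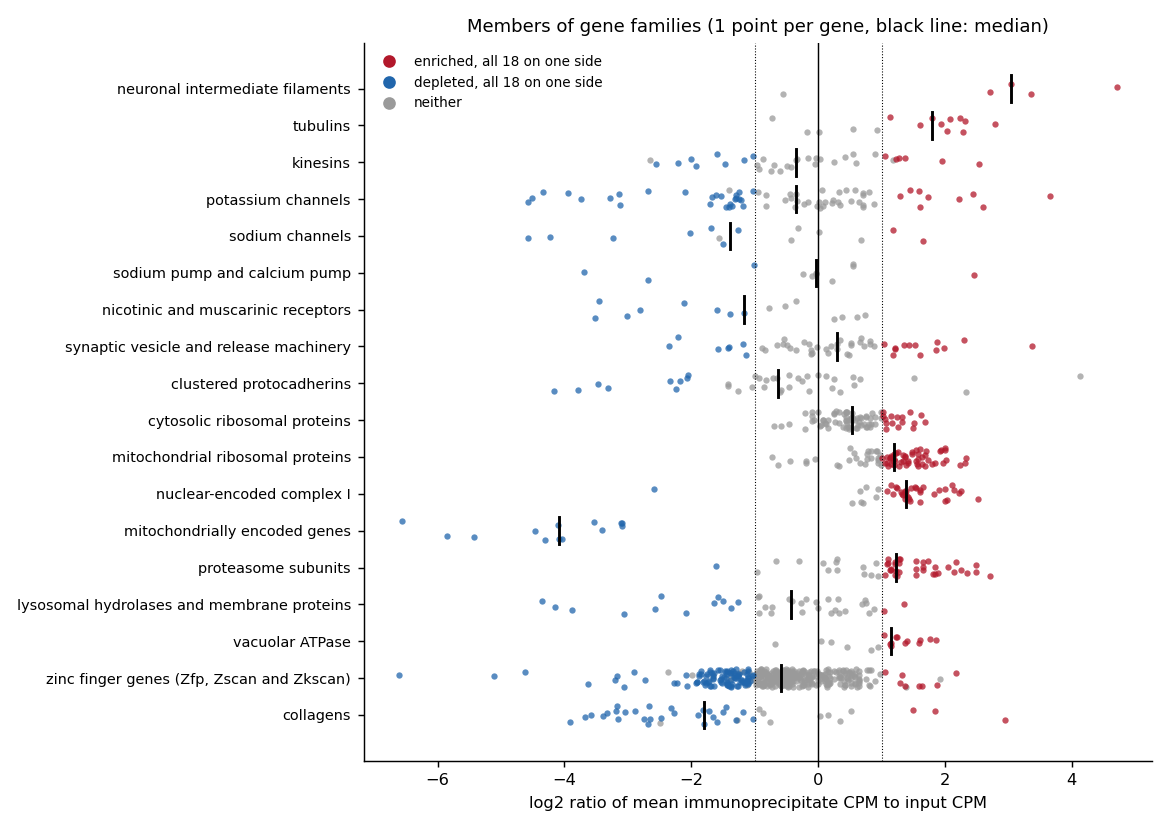
Log2 ratio of mean immunoprecipitate CPM to Input CPM for each member of 18 gene families (points; red, enriched; blue, depleted; grey, neither; vertical position within a family is random) with the family median as a black line and dotted lines at 2-fold. Nuclear-encoded complex I and mitochondrial ribosomal proteins lie mostly right of 0 at medians of 1.39 and 1.19, the mitochondrially encoded genes lie wholly left at -4.08, and channels, pumps and protocadherins span both sides.

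RNA-binding proteins linked to ALS were near the Input. None of 13 was enriched and 2 were depleted, Tia1 (-1.62) and Ang (-2.89). Tardbp, of the protein TDP-43, was at 93.1 CPM in the Input and between 98.6 and 162 CPM in the IPs (log2 ratio, 0.35). Other genes linked to ALS were 11 enriched and 2 depleted of 26. Beside Sod1 and Nefh they included Vcp (1.66), a segregase, Dctn1 (1.45), Stmn2 and Sarm1 (1.74), an NAD-cleaving enzyme of axon degeneration, while C9orf72 (0.82), Tbk1 (0.52) and Kif5a were within 2-fold. The depleted pair were Erbb4 (-2.92) and Spg11 (-2.22).

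The splicing machinery had 20 of 78 genes enriched and 5 depleted, and under library totals 13 were enriched, 8 depleted and its median of 0.22 turned to -0.11. The enriched ones included core proteins of the small nuclear ribonucleoproteins, such as Snrpc (2.04), Snrpb (1.92) and Snrpd2 (1.81), while Srsf1 (-0.15), Srsf2 (0.00) and Hnrnpk (-0.45) were within 2-fold of the Input. The lowest members were Hnrnpul1 (-1.51) and Hnrnpll (-1.23), of the heterogeneous nuclear ribonucleoproteins. Zinc finger genes, the largest class, had 8 of 387 enriched and 97 depleted (median, -0.59), and library totals gave 5 and 174. Their depleted share, 25.1%, was near the 23.0% of all genes, and their enriched share was 2.07% against 13.8%. Of 35 Hox genes, which give motor neurons their segmental identity, 3 were enriched, Hoxc5 (1.34), Hoxa7 (1.13) and Hoxd9 (1.00), and 11 were depleted, against 1 and 16 under library totals. Hoxa6 was at 10.4 CPM in the Input and at 0 in 6 of 18 IPs.

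The noncoding classes differed in depth of depletion. Small structured RNAs, of which 6 of 170 listed had enough counts, were all depleted, with Rmrp (-8.07), at 0 in 16 of 18 IPs, the lowest, and Rn7sk (-3.32) the highest. Of 29 long RNAs known as nuclear or untranslated 13 were depleted and none enriched (median, -0.92). Malat1, which stays in nuclear speckles, was at 202 CPM in the Input and between 26.3 and 75.5 CPM in the IPs (log2 ratio, -2.16). Neat1 (-1.24) and Meg3 (-1.12) were depleted, whereas the cytoplasmic RNA Norad had a ratio of 0.48 and lay above the Input in 17 of 18 IPs. Over all annotated long noncoding RNAs 5.63% were enriched and 19.3% depleted, against 14.8% and 24.2% of protein-coding genes. Pseudogenes had a median of 0.56 over 655 genes. Of them 15.7% were enriched, near the 13.8% of all genes, and 6.41% depleted, against 23.0% of all genes. The part of low Input counts, and of reads shared with near-identical genes, in these values was not tested.

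Matrix and immune genes were depleted for the most part. Of 40 collagens 28 were depleted and 3 enriched (median, -1.80), with Col1a2 (-3.91) the lowest. Of 32 laminins and integrins 18 were depleted and 3 enriched. The integrin alpha subunits Itga3 (1.83) and Itga7 (1.30) were enriched and Itgb8 (-5.17) was the most depleted. Among 28 genes of antigen presentation, complement and the interferon response 20 were depleted. The 2 enriched were H2-D1, a class I heavy chain, at 88.5 CPM in the Input and between 238 and 330 CPM in the IPs (log2 ratio, 1.73), and Tap2 (1.59), of the peptide transporter. B2m, the light chain that pairs with H2-D1, was at 70.8 CPM and between 11.7 and 25.2 CPM (-2.04).

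Genes known from axon injury and regeneration were among the higher classes in these uninjured animals, with 10 of 19 enriched, none depleted and a median of 1.59. Besides Lgals1 these included Anxa2, at 60.2 CPM in the Input and between 545 and 790 CPM in the IPs, S100a10 (2.76), the partner of annexin A2, Ecel1 (2.45) and Jun (1.70). Gap43 (0.10), the growth cone protein, was not separated from the Input. Of 12 genes of axon degeneration and NAD 1 was enriched, Sarm1, and 4 depleted, Cd38 (-2.71) the most, and the median of 0.29 turned to -0.04 under library totals. Immediate early genes, induced by activity, were 3 enriched (Jun, Ier2 (1.55) and Junb (1.22)) and 7 depleted of 18, Arc (-2.03) and Egr1 (-1.64) among the latter. Of 20 clock genes 1 was enriched and 8 were depleted, Cry1 (-2.12) among them. The IPs were spread over the day and the sources used here do not give the time of the Input, so ratios of genes that change over the day depend on the mix of times.

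The ratio moved with the length of the mRNA. Of the 15043 protein-coding genes compared, 14674 were matched to a coding transcript. In 5 bins of equal size, the shortest (138 to 1744 nt) had a median log2 ratio of 0.61, with 31.8% of genes enriched and 14.4% depleted. The medians of the next bins were 0.12, -0.17 and -0.35, and in the longest (4977 nt and over) the median was -0.52, with 5.66% enriched and 32.5% depleted. Between the shortest and the longest bin the gap was positive in every IP, from 0.80 in ZT16 replicate 2 to 1.35 in ZT4 replicate 3. Restricted to 100 Input counts or more, the medians of the shortest and longest bins were 0.73 and -0.44.

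Long 3′ untranslated regions and a low GC content went with lower ratios too. The medians ran from 0.41 to -0.42 over 5 bins of the former and from -0.44 to 0.27 over 5 bins of the latter, lowest GC first. Length and GC each kept their direction when the other was held to a similar range, since short transcripts of high GC had a median of 0.63 (33.5% enriched) and long transcripts of low GC one of -0.59 (3.68% enriched), with 0.11 for short transcripts of low GC and -0.21 for long ones of high GC. The classes differ in length. The median member of complexes II to V had 809 nt, that of complex I 921 nt, and that of cytosolic ribosomal proteins 878 nt, against 5304 nt for kinesins, 5803 nt for calcium channels and 6968 nt for sodium channels, and the part of length in the class medians was not tested.

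**Figure D5:**
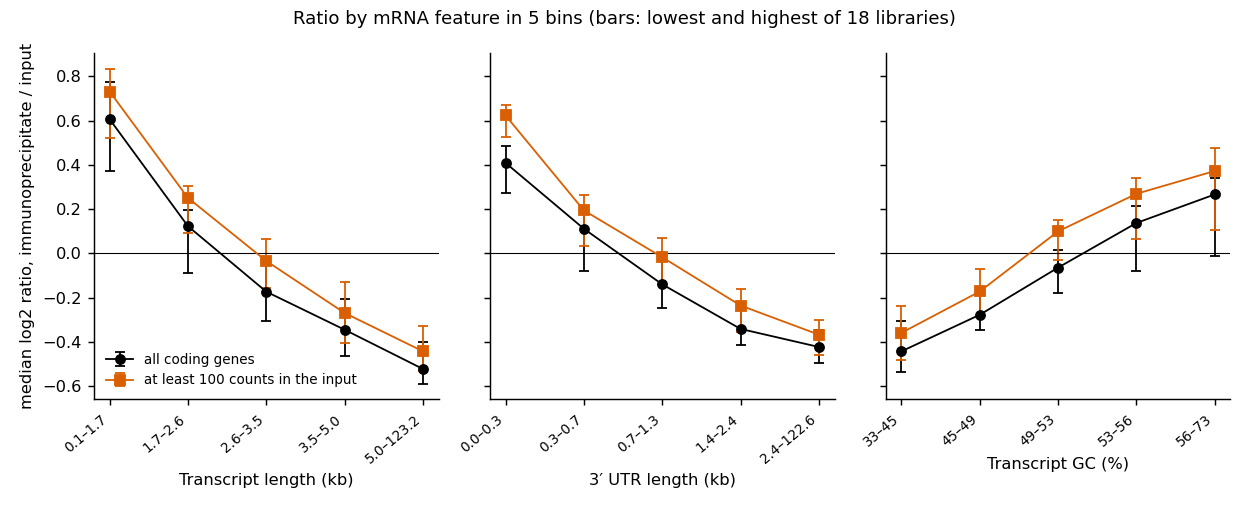
Median log2 ratio of protein-coding genes in 5 bins of equal size by transcript length, 3′ untranslated region length and GC content, for all coding genes (black circles) and for those of 100 Input counts or more (orange squares). Bars run from the lowest to the highest of the 18 immunoprecipitates, and the medians fall from 0.61 to -0.52 from the shortest to the longest bin.

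A pair of libraries stood at opposite ends of many of these measures. ZT8 replicate 2 gave the lowest or the highest median of the 18 IPs in 28 of the 74 classes and ZT16 replicate 2 in 20. ZT8 replicate 2 was highest for ribosomal proteins of both kinds, both respiratory classes, the proteasome and the vacuolar proton pump, and ZT16 replicate 2 was lowest for the same classes. For neuronal intermediate filaments and tubulins the order was turned, at 2.60 and 1.41 in ZT8 replicate 2 and at 3.38 and 1.91 in ZT16 replicate 2. The time points of the pair, each with its library included, differed in the same direction. Mean library medians at ZT8 and ZT16 were 2.74 and 3.22 for neuronal intermediate filaments, and 1.64 and 1.16 for complex I. The part of time of day was not tested. Without the 2 libraries 2506 genes were enriched and 4140 depleted, the counts of ribosomal, respiratory and proteasome genes given above did not change by more than 1, and Chat joined the enriched.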

How the data were processed

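The authors deposited a table of expected counts per gene, made with RSEM after alignment of paired-end reads of a stranded polyA library kit to mm10 with STAR 2.7.5, with no scaling. The strand setting of the counting is not given in the sources used here. Values, of which between 1.9% and 3.68% per library were not whole, were rounded. Genes were kept with filterByExpr of edgeR 4.0.16 (R 4.3.3) and scaled by TMM factors (1.24 for the Input, 0.944 to 1.01 for the IPs). Ratios were computed in Python 3.11.15 as mean IP CPM over Input CPM, without a pseudocount; an Input count of 0 was set to 3 counts (349 genes, of which 14 were enriched). Intervals are exact 95% Poisson intervals on the Input and cover counting error only. SDs span 18 animals at 6 times, whose libraries are separate biological replicates.

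No test was run, since the Input is a single library. Gene classes, marker lists and the members named were chosen with earlier results of these data known, and the spelling of histone symbols and some family patterns were trimmed after the gene names in the table were seen. The rule for named genes took all marker lists, the 2 highest and the 2 lowest members of a class with 100 or more Input counts, the 15 highest and 15 lowest genes over the table, and members on which a sentence turns. Near-identical copies (Rn7s1 and Rn7s2, alpha-globins, tubulins, ND4L and Gm10222) share reads and are uncertain singly. The clustered protocadherins, as related genes, may share reads too and are also uncertain singly. Gene positions and types came from RefSeq (GRCm38.p6), where 17668 symbols matched, and transcript lengths and primer positions from GENCODE M21. The ratio script was checked on simulated counts. The alternatives were other scalings (DESeq2 1.42.0 size factors among them), filters, fold thresholds, a median in place of the mean, and the removal of libraries. Some members of the classes are counted in them but not reported singly here.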

Additional observations from a re-analysis of the deposited data

Results flagged for a closer look

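In 12 genes and 1 class reported here the 3 libraries of one time point all lay above the Input and the 3 of another all below it, and the difference between the time points was not tested in any of them. The log2 ratios over all 18 IPs follow each name.

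The median of the class of sodium and calcium pumps (-0.037) was above the Input at ZT0 and below it at ZT4, ZT8 and ZT12. Glycolytic Eno1 (-0.080) was above at ZT0 and below at ZT4 and ZT8. Of the heat shock genes, Hspa1b (-0.39), an inducible HSP70, was above at ZT0 and below at ZT4 and ZT12, and Hspa4l (0.11) was above at ZT0, ZT8 and ZT16 and below at ZT12. Psmd5 (0.074), an assembly chaperone of the proteasome, was above at ZT0 and ZT20 and below at ZT4.

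The proton pump subunit Atp6v0a2 (0.052) was above at ZT0, ZT4, ZT8 and ZT16 and below at ZT12. The linker histone gene H1f0 (0.020) was above at ZT4 and ZT8 and below at ZT0 and ZT16. The collagens Col16a1 (0.034) and Col9a2 (0.15) were both below at ZT0, and above at ZT4 and at ZT12, respectively. Pvalb (-0.043), parvalbumin, was above at ZT8 and below at ZT0. Tubb4a (0.020), a tubulin, was above at ZT0 and ZT16 and below at ZT4 and ZT8. The splicing factor gene Srsf2 (0.0011) was above at ZT4 and below at ZT0 and ZT20, and Gm20716 (-0.011), whose span holds Adnp, was above at ZT8 and below at ZT0, ZT16 and ZT20.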

How the results depend on the processing

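No paired analysis was possible because the comparison comes from no test and has 1 Input library. The count of enriched genes (2474) became 1517 with library totals, all of them among the 2474, 3848 at a 1.5-fold and 511 at a 4-fold threshold, and the count of depleted genes (4110) became 2220 at a 4-fold threshold. Leaving out each library in turn gave between 2473 and 2524 enriched and between 4107 and 4144 depleted genes.

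Of 666 class medians under the alternatives, 571 moved by less than their spread over the IPs, 83 by more (55 of them under library totals), and 12, in 8 classes, changed sign. Under library totals these were ionotropic glutamate receptors (-0.18), synaptic vesicle genes (-0.024), cholesterol synthesis (-0.22), the splicing machinery (-0.11), axon degeneration and NAD genes (-0.042) and chaperones of the endoplasmic reticulum (-0.29), the last also with DESeq2 size factors (-0.026) and upper-quartile scaling (-0.068). The median of small heat shock proteins (-0.0009) ran from -0.13 to 0.052 with a replicate number left out. That of histone genes (-0.04) ran from -0.28 to 0.035 in this way, and was 0.020 at 10 or more Input counts, -0.83 at 10 or more counts over all libraries and -1.50 with median CPM. The cause was not tested. Of 445 single genes followed, 20 changed sign, 16 of them under library totals, and none of these was enriched or depleted. Chat met the rule on all 18 only when ZT8 replicate 2 was left out. Depth limits low genes, and of the 2019 genes with 0 to 9 Input counts 7.33% were enriched and none depleted. The filter kept such genes through their counts in an IP, so the lack of depleted genes among them was set by the filter. With a filter of 1 count in any library 5639 genes were depleted and 2474 enriched.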
